A study of Mus musculus with 4 samples.

Results

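The genes described here encode the machinery through which new secretory and membrane proteins enter the endoplasmic reticulum (ER) and receive their first modifications. The module held 36 genes, chosen by symbol from the known subunits of these complexes and not by their values, and all 36 were found among the 32286 features counted. It comprised the 4 Sec61 channel genes, Sec62 and Sec63, the 4 translocon-associated protein (TRAP) genes, 3 TRAM genes, 5 signal recognition particle genes, the 2 genes of its receptor, 5 signal peptidase genes and 11 oligosaccharyltransferase genes.

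Entry into the ER begins when the signal recognition particle binds the signal sequence of a nascent chain and brings the ribosome to its receptor on the ER membrane. The chain then passes through the Sec61 channel, helped by TRAP, by TRAM and, for many chains, by Sec62 and Sec63, the latter of which recruits the lumenal chaperone BiP. Signal peptidase cuts off the signal sequence, and oligosaccharyltransferase moves a preassembled glycan onto asparagine residues. Oligosaccharyltransferase exists in 2 forms, one with the catalytic subunit STT3A, which acts as the chain enters, and one with STT3B, which reaches sites that were skipped. Neurons place high demands on this route because receptors, channels, adhesion molecules and neuropeptides all pass through it.

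Nuclei were taken from hippocampus and cortex at 5 weeks of age, with 2 libraries from Sel1L fl/fl mice, in which both Sel1L alleles are floxed, and 2 from Sel1L SynCre mice, in which Cre driven by the synapsin I promoter removes floxed Sel1L in neurons. SEL1L is the cofactor of the ubiquitin ligase HRD1 in ER-associated degradation (ERAD), the route by which misfolded ER proteins are returned to the cytosol and destroyed. The promoter is active in neurons but does not reach all of them alike. Each genotype was represented by 2 mice, so p-values rest on few animals and on a spread estimated partly from other genes of the class. Class names with the ending -like were given from marker genes, and the module's genes took no part in making the classes.

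The deposited matrices held 7366 to 12599 nuclei and 74082610 to 122870443 UMIs (unique molecular identifiers, one per captured RNA molecule) per library. After filtering, 33281 nuclei remained, of which 22554 were neuron-like and 16512 of those received 1 of 12 subtype names. Between 9 and 32 barcodes were shared by any pair of libraries, at most 0.443% of the smaller one. In both genotypes replicate 1 carried the Y-linked Ddx3y and replicate 2 the female-specific Xist, so sex was balanced between the genotypes. Of the checks of the genotype, Sel1l parted the libraries by label but was higher, not lower, in Sel1L SynCre, and Cre did not follow the labels. Sel1l stood at 97.1 and 90.02 CPM (UMIs of the gene as counts per 1000000 UMIs) in the Sel1L fl/fl pair of libraries against 155 and 128 in the Sel1L SynCre pair, although UMIs read the 3′ end of an RNA and need not cover the deleted part. Cre transcripts gave 236 and 221 UMIs in the Sel1L SynCre libraries and 0 in Sel1L fl/fl replicate 2, but 408 in Sel1L fl/fl replicate 1, whose label these UMIs go against. Main results are therefore also given without that library. Leaving it out keeps only the female Sel1L fl/fl library, so sex is then no longer balanced. Magt1 and Ssr4 lie on the X chromosome, and the part of sex in those results was not tested. Values below are CPM of UMIs summed over the nuclei of a class and scaled by TMM, in the order replicate 1, replicate 2, with Sel1L fl/fl first. The sums of marker genes and the values under Other observations are CPM without that scaling, so they are not on the same scale.

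Transcripts of the module were higher in Sel1L SynCre than in Sel1L fl/fl mice in 3 neuron subtypes above all, Sst-like and Pvalb-like interneurons and the granule-like neurons of the dentate gyrus (DG). Of 35 members tested in Sst-like neurons, 24 rose and 0 fell at an adjusted p under 0.05 (edgeR quasi-likelihood test, Benjamini-Hochberg adjustment over all genes of the class), against 8.52% of all genes called in either direction and 4.66% called higher. In DG-like neurons 19 of 35 rose and 0 fell, against 3.65% of all genes called and 1.94% called higher. In Pvalb-like neurons 11 of 35 rose and 0 fell, against 4.16% of all genes called and 2.21% called higher. The tested members had a median log2 fold change of 0.92 in Sst-like neurons, 0.73 in the Pvalb-like class and 0.57 in DG-like neurons, while the median over all genes lay at 0.01 in each of these classes. The classes were drawn from the same 4 mice, so a gene that passed in several of them was not seen in independent animals.

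When Sel1L fl/fl replicate 1 was left out, 12 members passed in Sst-like, 8 in Pvalb-like neurons and 7 in DG-like neurons, with median log2 fold changes of 0.84, 0.75 and 0.64, against 3.05%, 1.95% and 1.9% of all genes called in the same fits. All 12 in Sst-like, 7 of the 8 in Pvalb-like and all 7 in DG-like neurons were among those called with all 4 libraries, and Stt3b was the further call in Pvalb-like neurons. Leaving out Sel1L fl/fl replicate 2 or Sel1L SynCre replicate 1 left 11 members in DG-like neurons in each case (2.44% and 3.26% of all genes called), and leaving out Sel1L SynCre replicate 2 raised the count in Pvalb-like neurons to 21 (6.94%). Markers of other cells, read as summed levels of 6 genes per cell type, were not level between the genotypes throughout. The summed level of 6 oligodendrocyte markers was 357 and 324 CPM in Sel1L fl/fl against 241 and 247 CPM in Sel1L SynCre DG-like neurons, with all 6 lower and none at 0. In Sst-like neurons the same sum was 88.2 and 58.9 against 48.1 and 40.1 CPM. Of the 6, 3 were lower and 1 was higher in both Sel1L SynCre libraries, and 1 was at 0 in Sel1L SynCre replicate 2. In Pvalb-like neurons it was 70.7 and 58.5 against 68.5 and 44.9 CPM, with 2 lower, 1 higher and none at 0. The sum of the OPC (oligodendrocyte precursor) markers was 697 and 644 against 718 and 667 CPM in Sst-like, 586 and 530 against 435 and 504 CPM in Pvalb-like and 925 and 830 against 783 and 813 CPM in DG-like neurons. In these classes 1, 4 and 3 of the 6 were lower in both Sel1L SynCre libraries and 1, 0 and 1 were higher in both. The astrocyte markers summed to 283 and 86.8 against 227 and 143 CPM in Sst-like, 62.5 and 45.6 against 74.5 and 36.7 CPM in Pvalb-like and 207 and 199 against 225 and 221 CPM in DG-like neurons. Of these 6, 2, 1 and 4 were higher in both Sel1L SynCre libraries and 0, 0 and 1 were lower in both. Microglial and macrophage markers summed to between 49.9 and 110 CPM in every library. At most 1 marker of a list was at 0 in a library, except for 3 microglial ones in Sst-like neurons of Sel1L SynCre replicate 2. The part of these RNAs in the module's results was not tested.

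**Figure D1:**
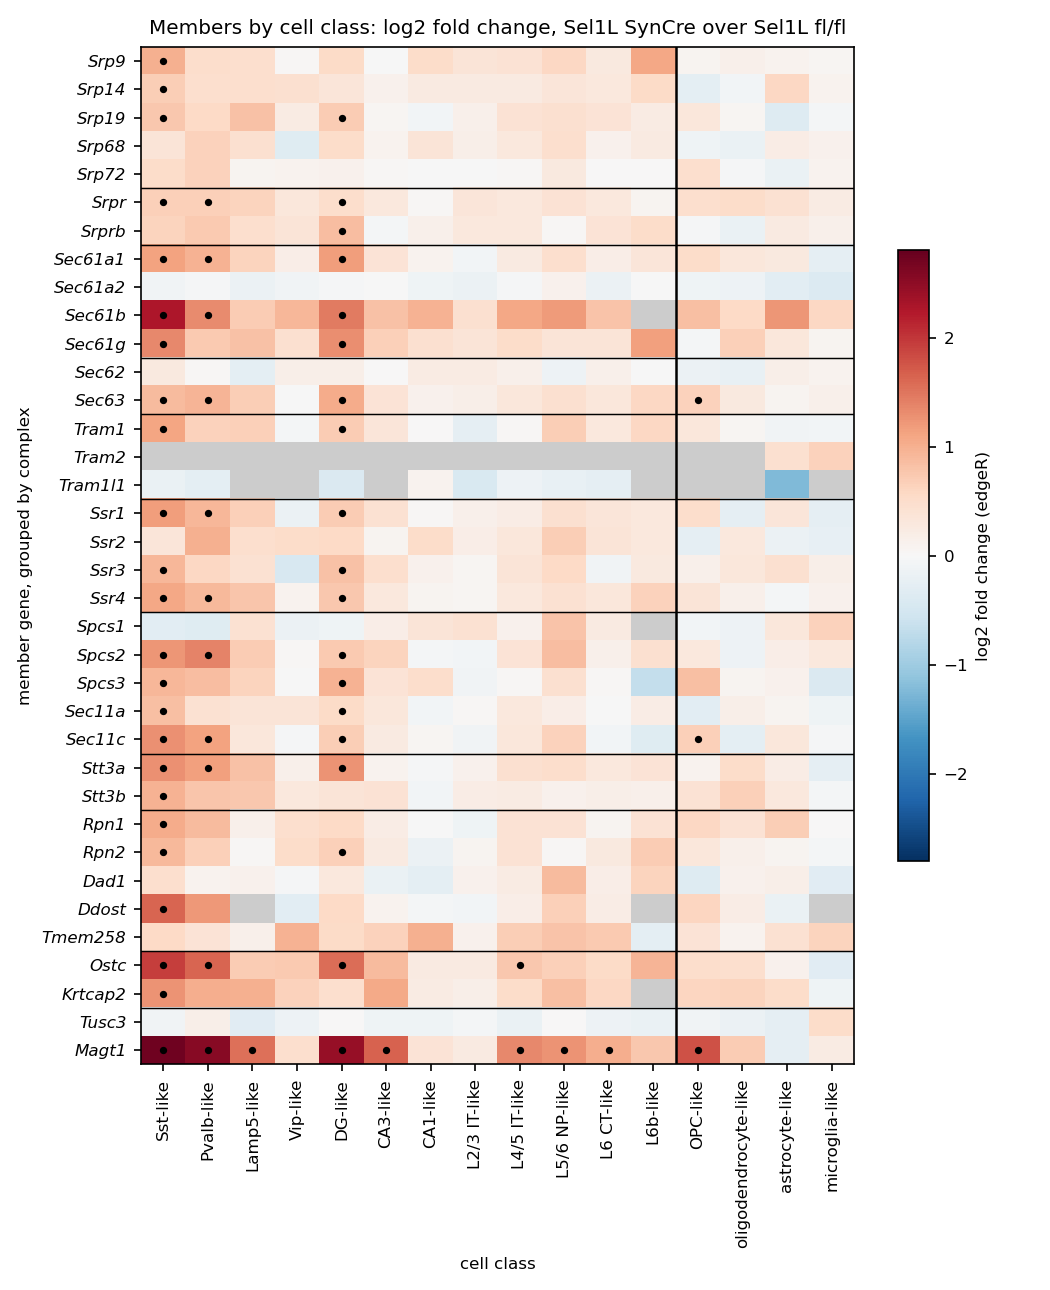
Log2 fold change (Sel1L SynCre over Sel1L fl/fl, edgeR) of each member, in rows by complex, across 12 neuron subtypes and 4 glial classes in columns. Dots mark an adjusted p under 0.05 and grey cells were not tested. Calls gather in the Sst, DG and Pvalb columns, with 24, 19 and 11 dots, and no dot marks a lower level.

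Of the Sec61 channel, the pore of the translocon, 3 of 4 genes rose in Sst-like and DG-like neurons. Sec61b, which encodes the small beta subunit, was at 3.99 and 5.37 CPM in Sel1L fl/fl and at 22.8 and 21.6 CPM in Sel1L SynCre Sst-like neurons, a log2 fold change of 2.27 ± 0.34 (SE, adjusted p = 0.000332). Sec61g, the gamma subunit, was at 17.1 and 23.1 against 52.5 and 47.5 CPM there (1.34 ± 0.22, adjusted p = 0.000695). Sec61a1, one of 2 genes for the pore-forming alpha subunit, was at 38.8 and 32.8 against 85.6 and 72.7 CPM (1.14 ± 0.18, adjusted p = 0.000539). For all 3 genes both Sel1L SynCre libraries stood clear of both Sel1L fl/fl libraries. Here and below, such a lack of overlap only describes genes already picked by the test and adds no support to it. The log2 fold changes of Sec61a1 were 0.98 in Pvalb-like neurons and 1.18 in DG-like neurons, both past the test, and those of Sec61b were 1.33 and 1.46, both past it too, whereas Sec61g passed in DG-like neurons (1.30) and not in Pvalb-like neurons (0.74, adjusted p = 0.0869). The other alpha subunit gene, Sec61a2, gave 145 and 147 against 132 and 143 CPM in Sst-like neurons, a log2 fold change of -0.09 ± 0.14 (adjusted p = 0.768), and -0.03 in both Pvalb-like and DG-like neurons.

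Sec63, the membrane-anchored cochaperone that calls BiP to the channel, had its clearest difference in DG-like neurons, at 97.0 and 87.1 CPM in Sel1L fl/fl and 194 and 185 CPM in Sel1L SynCre (1.04 ± 0.11, adjusted p = 0.000101). It rose by 0.89 in Sst-like and by 0.94 in Pvalb-like neurons. Its partner Sec62 gave 68.6 and 83.3 against 93.2 and 88.9 CPM in Sst-like neurons (0.27 ± 0.16, adjusted p = 0.347), with log2 fold changes of 0.03 in Pvalb-like neurons and 0.16 in DG-like neurons, none past the test. Tram1, which sits beside the channel and contacts entering chains, was at 29 and 38.1 against 76.4 and 66.1 CPM in Sst-like neurons (1.1 ± 0.19, adjusted p = 0.00119). Tram1 also rose in DG-like neurons (0.71) and missed the threshold in Pvalb-like neurons (0.65, adjusted p = 0.0551). Of its relatives, Tram1l1 reached at most 6.84 CPM in any library of these 3 classes and did not pass in any class, and Tram2, with at most 12 UMIs per library, was too sparse to be tested in any neuron subtype.

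The TRAP complex, which helps chains with weak signal sequences into the channel, contributed 3 of 4 genes in Sst-like and DG-like and 2 of 4 in Pvalb-like neurons. Ssr4, the delta subunit, was at 55.5 and 57.5 CPM in Sel1L fl/fl and at 121 and 120 CPM in Sel1L SynCre Sst-like neurons (1.09 ± 0.15, adjusted p = 0.000166). Ssr1, the alpha subunit, was at 25.8 and 26.9 against 59.6 and 58.3 CPM in the same cells (1.16 ± 0.19, adjusted p = 0.000648). Both differences were larger than the distance between replicates. Ssr3, the gamma subunit, was best resolved in DG-like neurons, at 16.4 and 16.6 against 30.8 and 27.3 CPM (0.82 ± 0.18, adjusted p = 0.0198). Ssr2, the beta subunit, was the TRAP gene that passed in no class. Its nearest approach was in Pvalb-like neurons, at 11 and 14.7 against 28.6 and 22.1 CPM (1.00 ± 0.26, adjusted p = 0.0509).

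Signal peptidase consists of the accessory subunits SPCS1, SPCS2 and SPCS3 and of a catalytic subunit that is either SEC11A or SEC11C. Of its 5 genes, 4 rose in Sst-like and DG-like neurons and 2 in Pvalb-like neurons. Spcs2 was at 34.8 and 28.5 CPM in Sel1L fl/fl and at 78.0 and 72.1 CPM in Sel1L SynCre Sst-like neurons (1.23 ± 0.18, adjusted p = 0.000294). Sec11c was at 18.5 and 15 against 43.3 and 39.0 CPM (1.28 ± 0.22, adjusted p = 0.00136), and Sec11a at 40.3 and 40.8 against 73.7 and 72.1 CPM (0.85 ± 0.17, adjusted p = 0.00351). The genotypes did not overlap for any of these 3 genes. Spcs3 was best resolved in DG-like neurons, at 14.7 and 16.1 against 33.7 and 26.4 CPM (0.97 ± 0.19, adjusted p = 0.0105). Spcs1 was the exception, at 11.2 and 14.5 against 8.13 and 12.6 CPM in Sst-like neurons (-0.30 ± 0.34, adjusted p = 0.68), and its log2 fold changes in Pvalb-like and DG-like neurons were -0.35 and -0.12.

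Of the 5 signal recognition particle genes, 3 rose past the threshold in Sst-like neurons, 1 in DG-like neurons and 0 in Pvalb-like neurons. The median log2 fold changes of the 5 were 0.69, 0.52 and 0.56 there, and these 3 classes were not tested against each other. Srp9 and Srp14 encode the pair of proteins that pauses elongation. Srp9 was at 18.5 and 27.4 CPM in Sel1L fl/fl and at 45.5 and 43.8 CPM in Sel1L SynCre Sst-like neurons (0.99 ± 0.22, adjusted p = 0.00926), and Srp14 at 39.5 and 44.6 against 71.5 and 63.7 CPM (0.69 ± 0.17, adjusted p = 0.0185). Srp19, needed to assemble the particle, was at 23.2 and 22.5 against 38.1 and 36.3 CPM in DG-like neurons (0.70 ± 0.16, adjusted p = 0.0237) and gave 0.77 in Sst-like neurons. Each of these ranges was free of overlap. Srp68 and Srp72, which bind each other on the particle's RNA, passed in no class, with log2 fold changes of 0.36 and 0.51 in Sst-like neurons (adjusted p = 0.339 and 0.0937).

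Srpr, the receptor subunit that docks the particle, was at 53.7 and 55.3 CPM in Sel1L fl/fl and at 80.2 and 91.9 CPM in Sel1L SynCre Sst-like neurons (0.66 ± 0.16, adjusted p = 0.0156), and it rose by 0.68 in Pvalb-like neurons and by 0.50 in DG-like neurons. Srprb, its membrane anchor, passed in DG-like neurons, at 10.3 and 10.6 against 19.2 and 18.9 CPM (0.87 ± 0.21, adjusted p = 0.035), and had log2 fold changes of 0.63 in Sst-like and 0.73 in Pvalb-like neurons that did not pass.

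Oligosaccharyltransferase held the largest fold change of the module in these 3 classes. Magt1, an oxidoreductase subunit of the STT3B form, was at 13.1 and 5.37 CPM in Sel1L fl/fl and at 71.0 and 58.9 CPM in Sel1L SynCre Sst-like neurons, a 6.64-fold difference (log2 fold change 2.73 ± 0.28, adjusted p = 9.81e-06). In Pvalb-like neurons it was at 8.92 and 13.9 against 70.3 and 60.9 CPM (2.56 ± 0.23, adjusted p = 9.09e-05), and in DG-like neurons at 14.3 and 13.3 against 84.7 and 64.8 CPM (2.43 ± 0.17, adjusted p = 2.89e-06). Without Sel1L fl/fl replicate 1 the log2 fold changes were 3.58, 2.24 and 2.48. Tusc3, the other oxidoreductase that can take this place in the complex, was at 95.4 and 95.6 against 84.0 and 94.3 CPM in Sst-like neurons (-0.10 ± 0.15, adjusted p = 0.761), with log2 fold changes of 0.17 in Pvalb-like neurons and 0.01 in DG-like neurons, and it passed in no class.

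Ostc, which ties the STT3A form to the channel, was at 21.8 and 23.1 CPM in Sel1L fl/fl and at 88.8 and 81.7 CPM in Sel1L SynCre Sst-like neurons (1.93 ± 0.18, adjusted p = 4.38e-06), and rose by 1.64 in Pvalb-like and by 1.57 in DG-like neurons. Krtcap2, the other subunit particular to that form, was at 11.2 and 12.4 against 28.7 and 27.6 CPM in Sst-like neurons (1.26 ± 0.26, adjusted p = 0.00443). Of the catalytic subunits, Stt3a was at 34.5 and 29.5 against 83.4 and 72.7 CPM (1.28 ± 0.18, adjusted p = 0.000199) and Stt3b at 61.7 and 40.3 against 108 and 93.7 CPM (0.96 ± 0.19, adjusted p = 0.00316) in Sst-like neurons. In DG-like neurons Stt3a rose (1.25 ± 0.14, adjusted p = 0.00024) and Stt3b gave 0.37 ± 0.14 (adjusted p = 0.201). In Pvalb-like neurons Stt3a rose by 1.14 and Stt3b lay just outside the threshold (0.78, adjusted p = 0.052).

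Of the 5 subunits common to both forms, 3 rose past the threshold in Sst-like, 1 in DG-like and 0 in Pvalb-like neurons. Their median log2 fold changes there were 0.91, 0.56 and 0.66, and these 3 classes were not tested against each other. Ddost, which stabilizes the complex, was at 5.44 and 2.69 CPM in Sel1L fl/fl and at 15.2 and 11.4 CPM in Sel1L SynCre Sst-like neurons (1.62 ± 0.41, adjusted p = 0.0188). Rpn1 and Rpn2 encode the ribophorins, large membrane subunits. Rpn1 was at 16 and 14 against 33.6 and 28.2 CPM (1.04 ± 0.24, adjusted p = 0.0121) and Rpn2 at 30.5 and 33.3 against 66.1 and 52.9 CPM (0.91 ± 0.19, adjusted p = 0.00546). The libraries of the 2 genotypes were apart for all 3 genes. The small subunits Dad1 and Tmem258 passed in no class, with log2 fold changes of 0.47 and 0.57 in Sst-like neurons (adjusted p = 0.449 and 0.309).

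**Figure D2:**
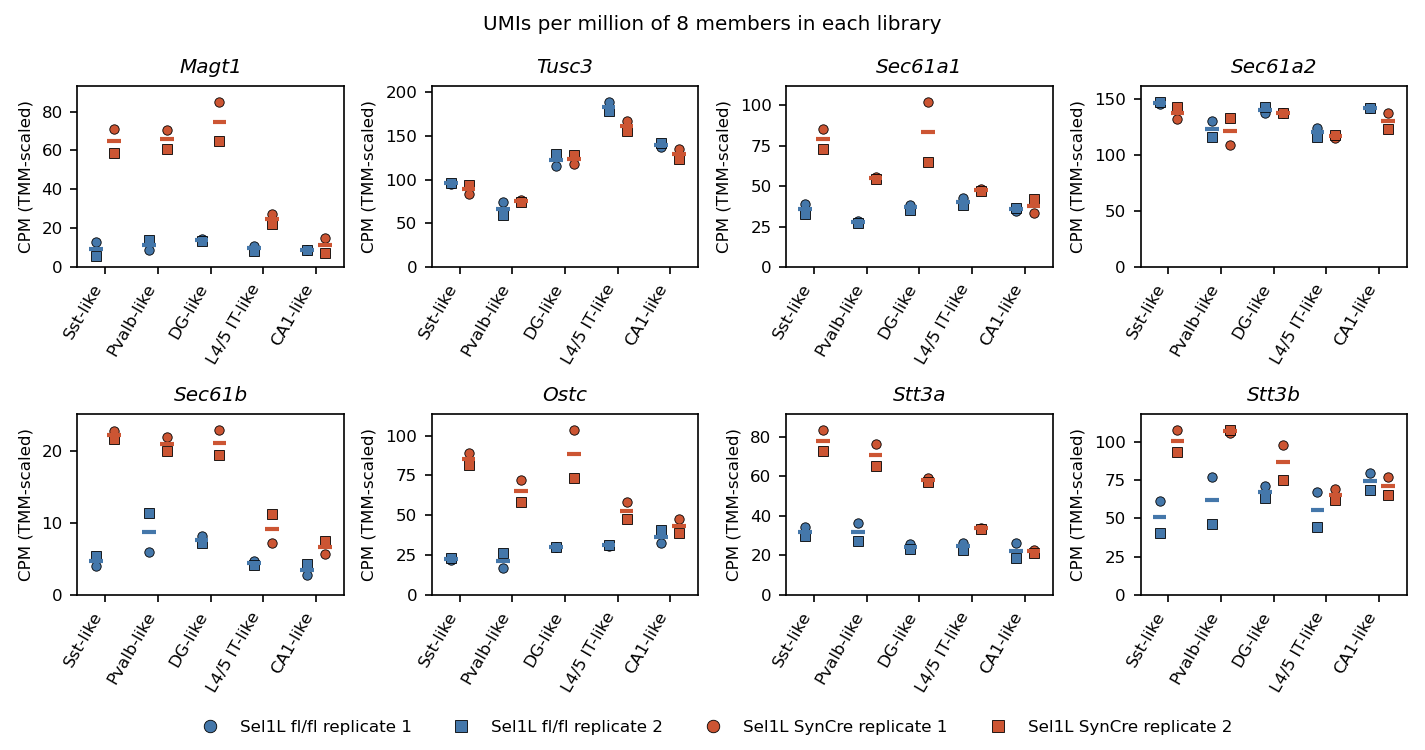
CPM (linear axes from 0) of 8 members in each of the 4 libraries in Sst-, Pvalb-, DG-, L4/5 IT- and CA1-like neurons. Each point is 1 library, and Magt1, Sec61a1, Sec61b, Ostc and Stt3a separate by genotype in the first 3 classes, as with Ostc in Sst-like neurons at 21.8 and 23.1 against 88.8 and 81.7 CPM, while Tusc3 and Sec61a2 do not rise.

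Counted over all 17 comparisons (12 subtypes, all neuron-like nuclei together and 4 glial classes), 25 members passed in at least 1 and 11 in none. The share of all genes that passed in at least 1 comparison was not taken. In single comparisons 0.0156% (CA1-like neurons) to 8.94% (OPC-like nuclei) of all genes were called. The 11 were Sec61a2, Sec62, Ssr2, Spcs1, Srp68, Srp72, Tram2, Tram1l1, Dad1, Tusc3 and Tmem258. No comparison called a member lower. By annotation 16 members overlap a gene on the other strand, among them Spcs2 (Xrra1), Srpr (Tirap, Foxred1 and Fam118b), Krtcap2 (Trim46) and Rpn2 (Mroh8), and whether strand was used in counting is not given in the sources used here, so UMIs of those pairs may be shared.

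Several subunits exist as paralog pairs of which a complex takes one, and the UMIs of each pair were set against each other within a library. The share of one paralog is compared here only between libraries, because the capture of 2 different genes differs. Magt1 made up 12% and 5.32% of Magt1 and Tusc3 UMIs in Sel1L fl/fl and 45.8% and 38.4% in Sel1L SynCre Sst-like neurons, with Wilson 95% intervals that cover counting error only of 8.82 to 16.2%, 2.91 to 9.51%, 40.1 to 51.6% and 32.7 to 44.5%. In Pvalb-like neurons the shares were 10.8% and 19.0% against 48.0% and 45.2%, and in DG-like neurons 11% and 9.32% against 41.8% and 33.5%. Both Sel1L SynCre shares lay above both Sel1L fl/fl shares in 11 of the 12 subtypes, the exception being CA1-like neurons, at 5.83% and 5.62% against 10.0% and 5.53%. In L2/3 IT-like neurons the gap was small, at 6.30% and 5.60% against 8.19% and 6.35%. There, and in Vip-like and L6b-like neurons, Wilson intervals of the 2 genotypes overlapped. The subtypes came from the same mice, so counts over subtypes are not independent. Sec61a1 made up 21.1% and 18.3% of the UMIs of Sec61a1 and Sec61a2 in Sel1L fl/fl against 39.4% and 33.7% in Sel1L SynCre Sst-like neurons, and its share was higher without overlap in 8 of 12 subtypes.

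The shares of the 2 catalytic pairs overlapped between genotypes in more subtypes. The share of Stt3a among Stt3a and Stt3b was 26.4% and 26.8% in Sel1L fl/fl against 37.6% and 43.2% in Sel1L SynCre DG-like neurons, but 35.8% and 42.3% against 43.6% and 43.7% in Sst-like neurons, where both genes rose. It was higher without overlap in 4 subtypes and lower in 1 (L2/3 IT-like). The share of Sec11c among Sec11c and Sec11a was 31.5% and 29.6% against 42.2% and 41.4% in Pvalb-like neurons, and it too was higher in 4 subtypes and lower in 1. An exact two-sided permutation test of any of these shares cannot go below p = 0.333 with 2 libraries against 2, so the shares are given as values. No share is given for the TRAM genes, since Tram2 was so sparse.

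**Figure D3:**
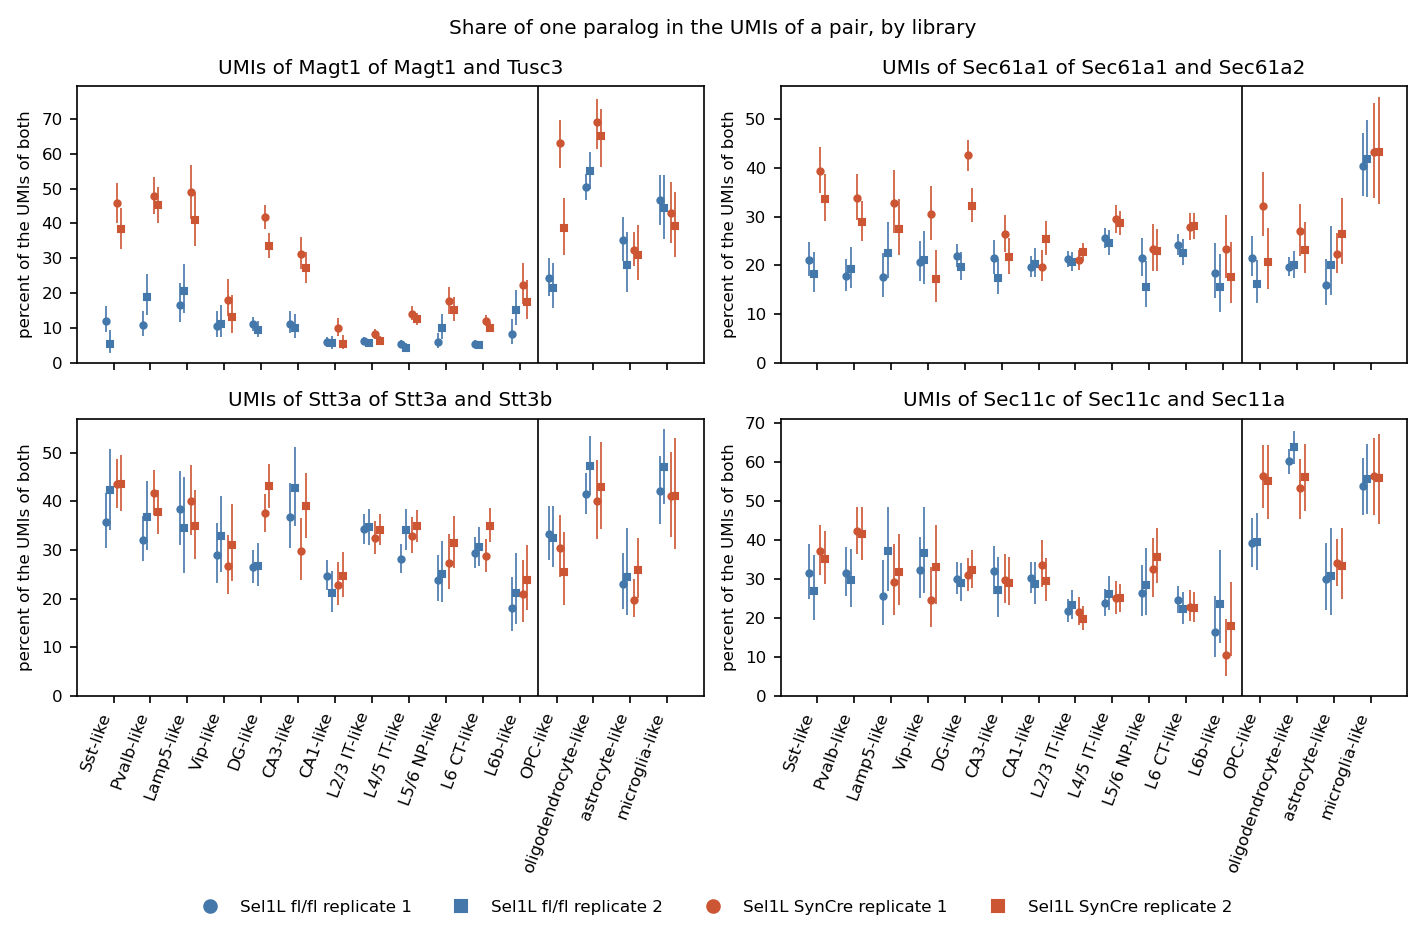
Share of UMIs (percent) taken by Magt1, Sec61a1, Stt3a and Sec11c within their paralog pairs, by neuron subtype. Points are single libraries and bars are Wilson 95% intervals, which cover counting error only. The Magt1 share in Sst-like neurons stood at 12% and 5.32% in Sel1L fl/fl and at 45.8% and 38.4% in Sel1L SynCre.

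In the other neuron subtypes few members passed. In L4/5 IT-like neurons, excitatory cells of the middle cortical layers, Magt1 and Ostc rose (2 of 35, with 1.86% of all genes called), Magt1 from 10.9 and 8.20 to 27.3 and 22.1 CPM (1.36, adjusted p = 0.0102) and Ostc from 30.4 and 31.5 to 58.0 and 47.3 CPM (0.76, adjusted p = 0.026). Magt1 was the 1 member that rose in L6 CT-like (1.01, adjusted p = 0.0441; 0.388% of genes called), L5/6 NP-like (1.25, adjusted p = 0.0426; 0.292%), CA3-like (1.66, adjusted p = 0.0215; 0.0493%) and Lamp5-like neurons (1.54, adjusted p = 0.024; 0.471%). Without Sel1L fl/fl replicate 1 it no longer passed in L5/6 NP-like and CA3-like neurons. It was also the 1 member of 36 called in all neuron-like nuclei together, at 12 and 11.8 CPM in Sel1L fl/fl against 31.0 and 24.0 CPM in Sel1L SynCre (1.2, adjusted p = 0.0289; 0.169% of genes called), and this call too was lost without Sel1L fl/fl replicate 1. At an unadjusted p under 0.05 the members numbered 15 of 35 in L4/5 IT-like (14.4% of all genes), 9 of 35 in L6 CT-like (11%), 16 of 35 in L5/6 NP-like (9.71%), 8 of 34 in CA3-like (8.15%) and 14 of 33 in Lamp5-like neurons (11.4%), and 20 of 36 in all neuron-like nuclei together (12.7%).

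No member passed in L2/3 IT-like, L6b-like, CA1-like or Vip-like neurons by edgeR or by DESeq2, although 1 passed in L6b-like neurons without Sel1L fl/fl replicate 2. In these classes 0.485%, 0.302%, 0.0156% and 0.0267% of all genes were called. At an unadjusted p under 0.05 edgeR gave 2, 8, 4 and 3 members in these classes, with 12.7%, 10.1%, 8.63% and 6.74% of all genes. In CA1-like neurons Magt1 was at 8.49 and 8.45 CPM in Sel1L fl/fl and at 15.1 and 7.21 CPM in Sel1L SynCre (0.39, adjusted p = 0.771), so that the Sel1L SynCre libraries lay on either side of the controls. In L2/3 IT-like and Vip-like neurons its log2 fold changes were 0.25 and 0.47, neither past the test.

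Ordered by the median log2 fold change of the members, the subtypes ran from Sst-like (0.92), Pvalb-like (0.73) and DG-like (0.57) through Lamp5-like (0.47), L5/6 NP-like (0.46), L6b-like (0.32), L4/5 IT-like (0.30), CA3-like (0.28) and L6 CT-like (0.27) to Vip-like (0.15), L2/3 IT-like (0.13) and CA1-like neurons (0.09). Hspa5 encodes the ER chaperone BiP and is a standard readout of ER stress. It had log2 fold changes of 3.16 in Sst-like, 2.33 in Pvalb-like, 2.14 in DG-like and 1.85 in Lamp5-like neurons. In the middle of the order its values did not follow those of the members. They were 1.04 in L5/6 NP-like, 1.37 in L6b-like, 1.48 in L4/5 IT-like, 1.42 in CA3-like and 1.06 in L6 CT-like neurons. In Vip-like, L2/3 IT-like and CA1-like neurons they were 0.87, 0.58 and 0.32. Among glia Hspa5 gave 1.97 in oligodendrocyte-like, 1.85 in OPC-like, 0.81 in astrocyte-like and 0.33 in microglia-like nuclei. The members' medians there were 0.14, 0.32, 0.18 and 0.07. Derl3, an ERAD gene that is nearly silent in resting cells, gave 0 and 0 UMIs in Sel1L fl/fl against 191 and 124 in Sel1L SynCre Sst-like neurons, and 3 and 2 against 246 and 125 in DG-like neurons. The classes differed in size and depth, from 882020 to 11831229 UMIs per subtype and library.

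**Figure D4:**
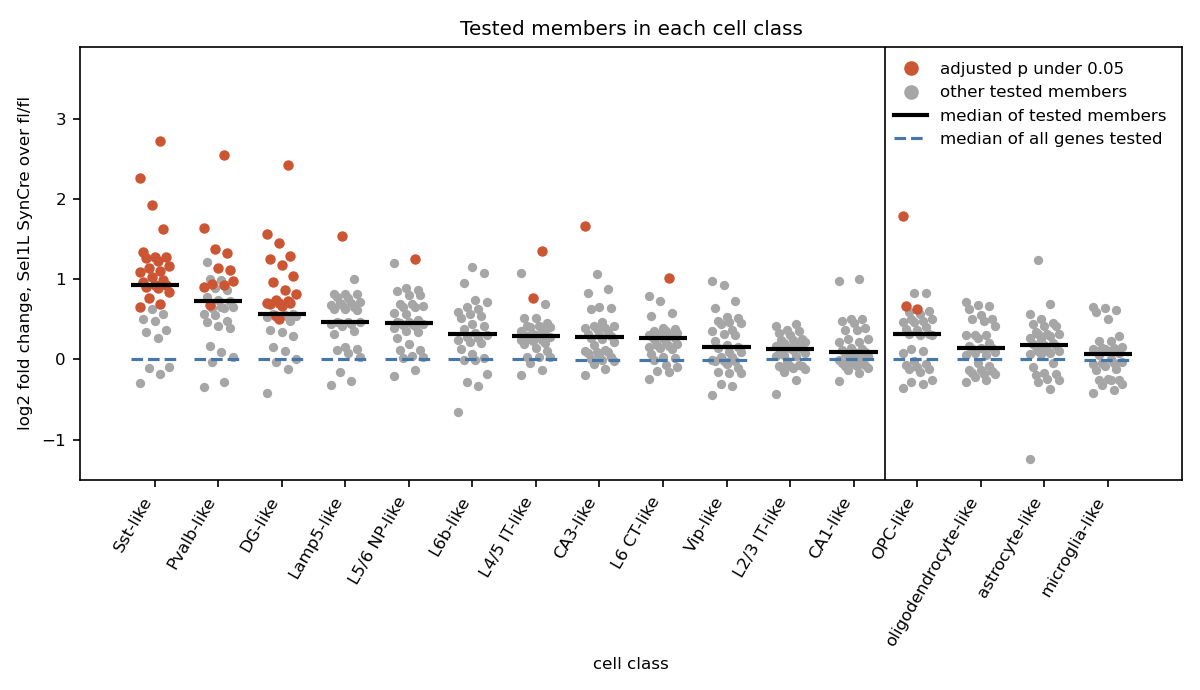
Log2 fold changes (Sel1L SynCre over Sel1L fl/fl) of the tested members in each class, 1 point per member, with their median as a black line and the median of all genes as a dashed blue line. The members' medians run from 0.92 in Sst-like to 0.09 in CA1-like neurons, while the median of all genes stays near 0.

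Whether these effects differed between subtypes was tested directly, with library as a block. The test was of the difference of log2 fold changes between Sst-, Pvalb- or DG-like neurons and CA1-like neurons. CA1-like neurons were the reference because the paper found SEL1L protein largely preserved in CA1. Cre UMIs per library numbered 5, 0, 1 and 1 in CA1-like neurons. They numbered 61, 0, 32 and 24 in Sst-like, 105, 0, 68 and 64 in Pvalb-like and 47, 0, 21 and 24 in DG-like neurons. The part of unequal deletion of Sel1L in the differences was not tested. The difference passed an adjusted p of 0.05 for 13 of 35 members in Sst-like (2.96% of all genes), 10 of 35 in Pvalb-like (1.81%) and 10 of 35 in DG-like neurons (2.55%), and in each case the change was larger than in CA1-like neurons. Magt1 had the largest differences, 2.34 ± 0.38 for Sst-like, 2.23 for Pvalb-like and 2.06 for DG-like neurons, and those of Ostc were 1.66, 1.41 and 1.30. Sec61a1, Sec63, Spcs2, Ssr1, Ssr4 and Stt3a also passed against CA1-like neurons in all 3 tests, which share the CA1-like nuclei. Tusc3, Sec61a2 and Sec62 differed from CA1-like neurons by 0.01, 0.04 and 0.06 in Sst-like neurons, none past the test. Without Sel1L fl/fl replicate 1 the differences that passed numbered 1, 6 and 3 in these subtypes, without Sel1L fl/fl replicate 2 they numbered 4, 5 and 5, and without Sel1L SynCre replicate 1 they numbered 7, 3 and 4. In these reduced fits 0.316% to 2.08% of all genes passed.

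**Figure D5:**
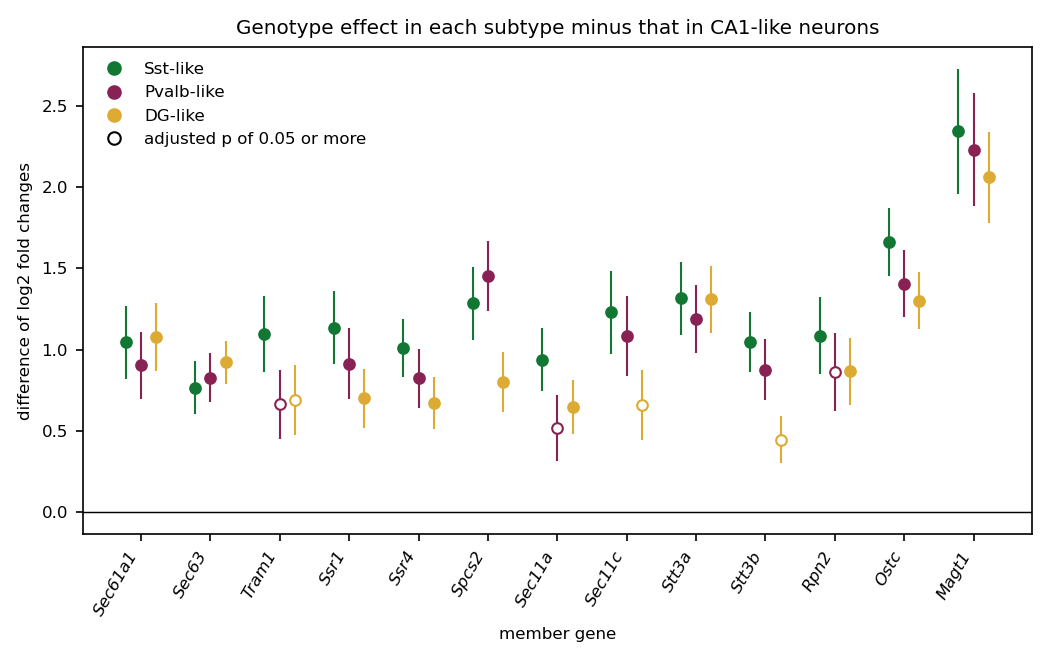
Difference of log2 fold changes between Sst-, Pvalb- or DG-like neurons and CA1-like neurons, with SE, for the 13 members that passed in at least 1 of the 3 tests. Filled points have an adjusted p under 0.05. Magt1 lies farthest from 0, at 2.34 in Sst-like, 2.23 in Pvalb-like neurons and 2.06 in DG-like neurons.

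Among glia, the precursors of oligodendrocytes (OPC-like nuclei) had 3 of 34 members higher and 0 lower, with 8.94% of all genes called and 3.81% called higher. The share of members called was thus close to that of all genes called in either direction. Magt1 had the lowest adjusted p of any member there, at 25.3 and 19.0 CPM in Sel1L fl/fl and at 106 and 48.7 CPM in Sel1L SynCre (1.79 ± 0.25, adjusted p = 1.47e-07). Sec63 was at 112 and 89.7 against 172 and 142 CPM (0.64, adjusted p = 0.00908) and Sec11c at 39.1 and 39.1 against 70.1 and 53.6 CPM (0.66, adjusted p = 0.0412). In all 3 genes Sel1L SynCre replicate 1 stood above replicate 2, and the count was 7 members without Sel1L SynCre replicate 2 (7.07% of all genes called) but 1 without Sel1L fl/fl replicate 2 (7.9%) or Sel1L SynCre replicate 1 (5.42%). Cre UMIs were found in 20 of 284 (7.04%) and 12 of 247 (4.86%) OPC-like nuclei of the Sel1L SynCre libraries and in 31 of 504 (6.15%) of Sel1L fl/fl replicate 1, and in 3.69%, 3.54% and 4.55% of the neuron-like nuclei of the same libraries. The OPC-like nuclei had medians of 3778, 3875 and 4109.5 UMIs in these libraries and the neuron-like nuclei 10032, 10115 and 10711. The shares in OPC-like nuclei rest on 20, 12 and 31 nuclei with a Cre UMI, and the part of depth in them was not tested. In oligodendrocyte-like nuclei of Sel1L fl/fl replicate 1, with a median of 3266.5 UMIs, the share was 0.108%. The make-up of this class also differed. The summed level of 6 mature oligodendrocyte markers was 3628 and 2745 CPM in Sel1L fl/fl against 111 and 155 CPM in Sel1L SynCre, and that of 6 immature oligodendrocyte markers 3337 and 3005 against 1239 and 1217 CPM, with every marker of both lists lower and none at 0. That of 6 astrocyte markers was 3800 and 4094 against 4823 and 4849 CPM, with 5 of the 6 higher in both Sel1L SynCre libraries. The part of these differences in the 3 calls was not tested.

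No member passed in oligodendrocyte-like, astrocyte-like or microglia-like nuclei by edgeR without a block or by DESeq2, although 2 passed in oligodendrocyte-like nuclei with a replicate block and 1 without Sel1L SynCre replicate 2. Without the block 0.986%, 1.21% and 0.0841% of all genes were called and 6, 4 and 1 members had an unadjusted p under 0.05, as did 11.1%, 13.1% and 8.36% of all genes. The median log2 fold changes of the members were 0.14, 0.18 and 0.07. Magt1 gave 0.72 in oligodendrocyte-like nuclei (adjusted p = 0.136), -0.26 in astrocyte-like and 0.23 in microglia-like nuclei.

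The neighbouring steps of the pathway were read from 51 further genes, of which 48 were tested in Sst-like and Pvalb-like and 50 in DG-like neurons. Besides Hspa5, the genes that rose were among those that make the lipid-linked glycan that oligosaccharyltransferase transfers. These were 2 of 22 tested in Sst-like, 1 of 21 in Pvalb-like and 2 of 23 in DG-like neurons. Of all genes 8.52%, 4.16% and 3.65% were called there in either direction. In Sst-like and Pvalb-like neurons the share of this list was thus close to that of all genes. With DESeq2, without a filter on low counts or with thinning, only 1 pathway gene passed in each of these classes, as given below. The calls named next therefore depend on the settings. Alg2, a mannosyltransferase of that route, rose in Sst-like (1.21, adjusted p = 0.0322), Pvalb-like (1.48, adjusted p = 0.0422) and DG-like neurons (0.88, adjusted p = 0.0415). Nus1, a subunit of the enzyme that makes the dolichol chain, rose in Sst-like neurons (0.72, adjusted p = 0.0422), and Alg12, another mannosyltransferase, in DG-like neurons (1.00, adjusted p = 0.0274). Dpagt1, which adds the first sugar to dolichol phosphate, had log2 fold changes of 0.69, 0.68 and 0.65 in Sst-, Pvalb- and DG-like neurons that did not pass, and Alg13 gave 0.66 in Sst-like neurons (adjusted p = 0.0518). Next in order of adjusted p came Dpm3 (0.80) and Dhdds (0.47) in Pvalb-like and Dpm1 (0.35) in DG-like neurons, none past the test.

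The genes of other routes into the ER membrane (the EMC and GET systems and the factors at the back of Sec61) had 0 genes called in these 3 classes, with median log2 fold changes of -0.04 in Sst-like, -0.06 in Pvalb-like neurons and -0.05 in DG-like neurons. Among all pathway genes with negative values, those of lowest adjusted p were Emc9 (-0.37, adjusted p = 0.24), Alg1, Emc1, Nomo1 and Ncln in Sst-like neurons. In Pvalb-like neurons they were Emc1 (-0.50, adjusted p = 0.297), Sil1, Ncln, Tmem147 and Tmco1, and in DG-like neurons Emc4 (-0.57, adjusted p = 0.172), Ubl4a, Emc7, Srd5a3 and Emc6. None of these passed the test. In total 3 of 48 tested pathway genes rose in Sst-like, 2 of 48 in Pvalb-like and 3 of 50 in DG-like neurons, and none fell. Of all genes 8.52%, 4.16% and 3.65% were called there in either direction, and 4.66%, 2.21% and 1.94% were called higher. In Sst-like and Pvalb-like neurons the share called was close to that over all genes in either direction, and in DG-like neurons it was above it. Against the genes called higher it was above in each class, on 2 or 3 genes with Hspa5 among them.

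Promoter sequences, 250 bases before to 50 after the start in RefSeq (GRCm38.p6), were held for 27 of the 36 members and are shown for members that rose. Motifs were searched on both strands. The ER stress response element ERSE (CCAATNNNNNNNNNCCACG) was in 0 of the 27 (0.137% of 27025 genes), the XBP1 site UPRE (TGACGTGG) in 0 (0.714%) and the ATF4 site CARE (TGATGNAA) in 0 (4.51%). The element ERSE-II (ATTGG and CCACG with any base between) was in 1, Krtcap2 (0.0444% of genes). The shorter parts of these elements, searched after the data had been seen, were commoner. CCACG, which is part of ERSE and ERSE-II, was in 18 members (66.7%, against 35.5% of genes), and CCAAT, part of ERSE and on the other strand of ERSE-II, in 14 (51.9%, against 41.1%). The first of these parts was also in Dad1, Sec61a2, Spcs1, Tmem258 and Tram2, which passed in no class. The other members with it rose, but Magt1, Rpn2 and Sec61g, which have the second part, rose without it. The remaining members that lack the first part are not listed here. Among members with the second part, only Dad1 passed in no class. Of all 36 members, including those without a promoter held here, 25 passed in at least 1 class. The background was all 27025 genes, not matched for base composition. Whether either part goes with a rise was not tested. The 3 stretches just before the RefSeq start of Magt1, Stt3a and Spcs2, which differed in Sst-like, Pvalb-like and DG-like neurons, are printed below. They lie at chrX:106011803-106011902 (minus), chr9:36767623-36767722 (minus) and chr7:99858884-99858983 (minus). The ERSE-II stretch of Krtcap2, at chr3:89246481-89246509 (plus), begins after its start. All are printed 5′ to 3′ on the gene's strand, with CCAAT or ERSE-II in capitals. In GENCODE vM21 the first 3 genes begin further upstream, at chrX:106011906, chr9:36767679 and chr7:99863462. The stretches of Magt1 and Spcs2, and part of that of Stt3a with its CCAAT, thus lie inside the annotated genes.
Magt1: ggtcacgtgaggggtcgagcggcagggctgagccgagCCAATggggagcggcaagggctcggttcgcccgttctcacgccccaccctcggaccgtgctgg
Stt3a: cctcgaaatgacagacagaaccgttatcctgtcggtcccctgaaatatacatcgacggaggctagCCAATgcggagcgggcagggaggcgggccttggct
Spcs2: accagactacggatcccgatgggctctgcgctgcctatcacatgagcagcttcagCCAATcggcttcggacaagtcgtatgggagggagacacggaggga
Krtcap2: gggacacggATTGGACCACGgacggggcg
A match is a description of letters and shows no binding.

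In Sel1L fl/fl mice the members were spread unevenly over the classes, which is described here as CPM on one TMM scale over all 16 classes (mean ± SD, n = 2) and with no test. Magt1 was low in Sst-like neurons (8.95 ± 5.41) and CA1-like neurons (9.51 ± 0.19) and highest in oligodendrocyte-like nuclei (57.0 ± 0.35). Tusc3 ranged from 44.6 ± 4.6 in microglia-like nuclei to 238 ± 4.3 in L6 CT-like neurons, and was at 51.0 ± 6.31 in oligodendrocyte-like nuclei. Sec11c was at 93.0 ± 8.84 in oligodendrocyte-like nuclei and at 13.2 ± 1.17 in L6b-like neurons, where it was lowest. Sec61a2 ranged from 61.5 ± 5.43 in microglia-like to 213 ± 18.2 in oligodendrocyte-like nuclei, Tram1 from 14.9 ± 1.75 in L5/6 NP-like neurons to 71.7 ± 1.6 in microglia-like nuclei, and Sec62 from 70.1 ± 3.43 in CA1-like to 185 ± 4.15 in L5/6 NP-like neurons. Neighbours at the low end of these orders, such as Sst-like and CA1-like neurons for Magt1, lay within their spread.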

How the data were processed

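Single-nucleus RNA libraries (10x Genomics 3′ chemistry, version 3) were mapped and counted by the authors with Cell Ranger 6.1.0 on GRCm38, per the submitters' processing notes, and the deposited matrices hold raw UMI counts per gene and nucleus. Whether intronic reads or strand entered the counting is not given in the sources used here. Nuclei with more than 600 genes and under 5% mitochondrial UMIs were kept. Scrublet (scanpy 1.11.5) removed 434 to 1270 presumed doublets per library, set by the loading (5.89 to 10.1%). Seurat 5.3.0 integrated the libraries (2000 features, 17 dimensions, resolution 0.2, and 0.4 within neurons), and clusters were named from markers. Layer 5/6 IT and endothelial classes could not be named and were not tested, and the OPC cluster also detected 4 of 6 immature oligodendrocyte markers. Raw counts were summed per library and class and tested with edgeR 4.0.16 (quasi-likelihood, TMM, filterByExpr, prior count 0.125, two-sided, adjusted p 0.05, no block), with DESeq2 1.42.0, other filters, scaling, thinning, names without integration, kept doublets, a replicate block and each library left out as alternatives. Levels and shares were not tested. The members, lists and rules were chosen with earlier results of these data known. Members past the threshold are named with values in the class of their lowest adjusted p, and pathway genes by the lowest adjusted p in each direction. Gene positions follow GENCODE vM21.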

Additional observations from a re-analysis of the deposited data

Results flagged for a closer look

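For 33 values the genotype effect of a member differed between a neuron subtype and CA1-like neurons (edgeR interaction test, adjusted p under 0.05 over all genes). Each difference of log2 fold changes was positive. The paper found SEL1L protein largely preserved in CA1, and the part of this in the differences was not tested. In Sst-like neurons these were Magt1 2.34, Ostc 1.66, Stt3a 1.32, Spcs2 1.29, Sec11c 1.23, Ssr1 1.14, Tram1 1.09, Rpn2 1.09, Sec61a1 1.05, Stt3b 1.05, Ssr4 1.01, Sec11a 0.94 and Sec63 0.77. In Pvalb-like neurons they were Magt1 2.23, Spcs2 1.45, Ostc 1.41, Stt3a 1.19, Sec11c 1.08, Ssr1 0.91, Sec61a1 0.90, Stt3b 0.88, Sec63 0.83 and Ssr4 0.82. In DG-like neurons they were Magt1 2.06, Stt3a 1.31, Ostc 1.30, Sec61a1 1.08, Sec63 0.92, Rpn2 0.87, Spcs2 0.80, Ssr1 0.70, Ssr4 0.67 and Sec11a 0.65. When Sel1L fl/fl replicate 1 was left out, the counts of such members fell to 1, 6 and 3.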

How the results depend on the processing

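In Sst-, Pvalb- and DG-like neurons every fold change of a called member stayed above 0 under all 13 alternatives (311, 143 and 246 values, the lowest 0.53, 0.55 and 0.33), and no named value reversed. These members were picked as higher in the same libraries, so their direction adds no support. Of the named values, 12 lost the threshold with DESeq2 and 15 kept their verdict. With thinning 8 lost it and 18 kept their verdict, and without a filter on low counts 7 lost it and 20 kept their verdict. Counts depended on the settings. The counts in this section are given without the share of all genes called in the same fits, and they are not read as results about the members. With DESeq2, 13 members passed in Sst-like, 10 in DG-like, 7 in Pvalb-like and 1 in OPC-like nuclei, 4 in all neurons, and 0 in L6 CT-, L5/6 NP- and Lamp5-like neurons, with 1 pathway gene each in Sst-, Pvalb- and DG-like and 0 in L5/6 NP-, L6b- and Lamp5-like neurons, and 2, 1 and 3 differences from CA1-like neurons in Sst-, Pvalb- and DG-like neurons. Without a filter on low counts, members numbered 7 in DG-like, 2 in Pvalb-like, 1 in L4/5 IT-like and OPC-like and 0 in L6 CT-, L5/6 NP-, CA3- and Lamp5-like neurons and all neurons, pathway genes 1 in Sst-, Pvalb- and DG-like neurons and 0 in L6 CT-, L5/6 NP-, L6b-, CA3- and Lamp5-like neurons, all neurons and oligodendrocyte-like nuclei, and differences from CA1-like neurons 1, 2 and 4. With pseudobulks thinned to one depth, members numbered 6 in DG-like, 1 in L4/5 IT- and OPC-like and 0 in L6 CT-like neurons and all neurons, and pathway genes 1 in Sst-, Pvalb- and DG-like and 0 in L4/5 IT-, L6 CT- and L5/6 NP-like neurons and all neurons. With names made without integration, members numbered 0 in L6 CT- and L5/6 NP-like neurons, pathway genes 0 in L5/6 NP- and L6b-like and 1 in Pvalb-like neurons, and 6 differences from CA1-like neurons passed in DG-like neurons. With doublets kept, members numbered 2 in Lamp5- and 1 in OPC-like nuclei, and pathway genes 1 in DG- and Pvalb-like and 0 in L6b-like and oligodendrocyte-like nuclei. In L5/6 NP-like neurons 0 members passed with DESeq2 size factors and 2 with at least 10 counts in every library. With Vip-like neurons as the reference, 3 and 4 differences passed in Pvalb- and DG-like neurons.

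Leaving out 1 library at a time, with the lone library assumed to vary like the other genotype's, gave 12 to 24 members in Sst-like, 7 to 22 in DG-like, 8 to 21 in Pvalb-like, 0 to 3 in L6 CT- and L5/6 NP-like, 0 to 1 in L6b-like, 0 to 2 in CA3-like, 1 to 2 in Lamp5-like, 0 to 4 in all neurons, 0 to 1 in oligodendrocyte-like and 1 to 7 in OPC-like nuclei, 1 to 4 pathway genes in DG-like and OPC-like, 1 to 3 in Pvalb-like, 1 to 2 in Sst-like and 0 to 1 in L5/6 NP-, CA3- and Vip-like neurons, all neurons and oligodendrocyte-like nuclei, and 1 to 13, 3 to 9 and 3 to 11 differences from CA1-like neurons in Sst-, Pvalb- and DG-like neurons. The labels do not state that replicate numbers pair the animals, but replicate 1 was male and replicate 2 female in both genotypes, so a replicate block also holds sex. The correlation of same-numbered deviations was 0.0242 in astrocyte-like nuclei and 0.103 to 0.240 in the other classes. With a replicate block, members numbered 25 in Sst-like, 20 in DG-like, 12 in Pvalb-like, 3 in L5/6 NP-like, 5 in Lamp5-like and 2 in oligodendrocyte-like nuclei and 4 in all neurons, and pathway genes 1 in L2/3 IT-like and 5 in Sst-like neurons. The cause of these changes was not tested. The 2 mice per genotype and few UMIs per member limit the precision, and counts of 1 to 3 members outside Sst-, Pvalb- and DG-like neurons rest on single genes.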

Other observations

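A Derl3 UMI was found in some Sel1L SynCre nuclei of every neuron subtype, of which 3 are described here. A nucleus without a UMI may still express the gene. Magt1 was compared between nuclei with and without a Derl3 UMI, a split chosen after the data had been seen and given without a test. In Sel1L SynCre L2/3 IT-like neurons, where no member passed in the subtype as a whole, 4.41% and 2.85% of nuclei had a Derl3 UMI, against 1.37% and 0.849% in Sel1L fl/fl. Magt1 stood at 31.8 and 50.2 CPM in those nuclei, from 13 and 19 UMIs (95% Poisson intervals, covering counting error only, of 17 to 54.5 and 30.2 to 78.3 CPM), and at 12.8 and 8.73 CPM in the others, beside 10.1 and 10.1 CPM in Sel1L fl/fl nuclei without one. The 11 and 6 Sel1L fl/fl nuclei with one gave 0 Magt1 UMIs, with intervals up to 21.3 and 31.7 CPM. All members together stood at 1617 and 1362 CPM with and 1197 and 1238 CPM without a Derl3 UMI in Sel1L SynCre. In Sel1L fl/fl they stood at 1138 and 1419 CPM with and 1141 and 1186 CPM without one. In L4/5 IT-like neurons of Sel1L SynCre mice Magt1 was at 68.8 and 46.5 CPM with and 22 and 20.6 CPM without a Derl3 UMI. In Sel1L fl/fl mice it was also higher in the nuclei with one, at 20.7 and 29.2 CPM from 1 and 2 Magt1 UMIs. It was at 10.4 and 8.06 CPM in those without. In Sst-like neurons, where 60.9% and 47.8% of nuclei had a Derl3 UMI, Magt1 was at 71.9 and 67.2 CPM with and at 71.2 and 53.2 CPM without one. The L2/3 IT-like nuclei with a Derl3 UMI numbered 29 and 22 and had medians of 12287 and 14370.5 UMIs, against 11868 and 12141.5 in those without, and the part of depth in the split was not tested.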
